A study of Mus musculus with 4 samples.

Results

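The genes described here encode the IL-1 family receptors of mouse Treg cells, among them *Il1rl1*, which encodes the IL-33 receptor ST2, together with a secreted antagonist of the family. The 8 genes are *Il1rl1*, *Il18r1*, *Il18rap*, *Il1r1*, *Il1r2*, *Il1rn*, *Il1rap* and *Sigirr*, taken by name from the 47729 genes listed in a table of RNA-seq counts, and all 8 had enough counts to be tested among 12536 genes. The study deleted *Tfrc*, which encodes the transferrin receptor TfR1, in Foxp3-expressing cells and sequenced RNA of sorted Treg cells. WT mice were *Tfrc* +/+ *Foxp3* YFP-Cre/+ and TfR1-deficient mice (TfR1 cKO) were *Tfrc* fl/fl *Foxp3* YFP-Cre/+, both on the C57BL/6 background, with 2 libraries each. No other treatment or time point is named for these libraries, and mice were 6 to 8 weeks old except those with Cre in every Treg cell, which gave none of them. Mice of both genotypes carry the Cre allele, whose expression is driven from the *Foxp3* locus. Because that locus is X-linked and the allele is present once, females also keep Treg cells without Cre, and YFP marked the cells that express it. CD25+YFP+ CD4 T cells were sorted, with spleen named as the source in the labels and lymph nodes added in the study's own description. Whether a library came from 1 mouse or from several was not stated, so p-values measure the spread between these libraries only.

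Receptors of the IL-1 family pair a ligand-binding chain with an accessory chain, and the paired intracellular TIR domains recruit MYD88 and IRAK kinases, which lead to NF-kB and MAP kinase activation. IL1R1 binds IL-1, ST2 binds IL-33 and IL18R1 binds IL-18. IL1RAP is the accessory chain for IL-1 and IL-33, and IL18RAP that for IL-18. Restraint is built into the family, since IL1R2 is a decoy that binds IL-1 without signalling, IL1RN occupies IL1R1 without activating it, and SIGIRR dampens signalling by the other receptors. In Treg cells ST2 is known as a mark of activated and tissue-resident cells, in which IL-33 promotes expansion, and IL1R2 is known on activated Treg cells.

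Of the receptor genes, 5 stand close together on chromosome 1, and start-site windows of the 3 genes with the clearest differences are printed so that their letters can be read beside the counts. A window spans 250 bases before to 50 bases after an annotated RefSeq start on GRCm38.p6, with all 4 windows on the plus strand and written 5′ to 3′. Capitals mark GATA motifs (AGATAA and AGATAG, as well as TGATAA and also TGATAG) and, in *Il1r2*, also the letters CACGTG and ACGTG, each searched on both strands. The letters ACGTG also occur inside CACGTG, so their matches overlap. *Il1rl1* has start sites far apart, shown as windows 1 and 2, at chr1:40429320-40429619 and chr1:40439379-40439678. Neither window covers the annotated start of the gene, at 40404864. *Il18r1* has 3 windows, of which the first is printed, at chr1:40465302-40465601. The *Il1r2* window lies at chr1:40085843-40086142, past the annotated start of the gene at 40084692.
*Il1rl1* window 1: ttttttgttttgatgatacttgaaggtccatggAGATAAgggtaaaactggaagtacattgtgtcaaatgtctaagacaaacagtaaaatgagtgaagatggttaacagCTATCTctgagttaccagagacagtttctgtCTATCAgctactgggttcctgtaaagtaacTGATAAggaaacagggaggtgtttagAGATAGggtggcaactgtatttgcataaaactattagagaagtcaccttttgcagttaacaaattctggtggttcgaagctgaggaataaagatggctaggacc
*Il1rl1* window 2: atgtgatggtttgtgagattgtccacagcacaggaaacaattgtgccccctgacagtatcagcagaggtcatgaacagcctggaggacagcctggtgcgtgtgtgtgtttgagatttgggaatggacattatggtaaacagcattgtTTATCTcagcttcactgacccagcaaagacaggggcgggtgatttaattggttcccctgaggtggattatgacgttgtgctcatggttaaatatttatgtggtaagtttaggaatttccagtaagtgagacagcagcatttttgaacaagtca
*Il18r1*: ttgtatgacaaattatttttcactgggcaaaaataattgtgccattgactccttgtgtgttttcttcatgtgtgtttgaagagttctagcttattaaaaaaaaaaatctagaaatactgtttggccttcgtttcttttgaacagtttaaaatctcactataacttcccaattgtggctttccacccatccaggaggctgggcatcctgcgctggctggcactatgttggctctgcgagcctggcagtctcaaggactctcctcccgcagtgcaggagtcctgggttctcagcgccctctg
*Il1r2*: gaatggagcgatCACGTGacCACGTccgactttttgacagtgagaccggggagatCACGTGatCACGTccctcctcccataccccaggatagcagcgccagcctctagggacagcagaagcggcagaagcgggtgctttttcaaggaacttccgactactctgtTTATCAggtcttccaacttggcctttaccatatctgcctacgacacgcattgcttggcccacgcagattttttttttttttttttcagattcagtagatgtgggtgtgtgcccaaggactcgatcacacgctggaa

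*Il1rl1* window 1 held 5 GATA matches and window 2 held 1, each of the 3 *Il18r1* windows held 0 and the *Il1r2* window held 1. Over all 32851 RefSeq windows of this length 29.8% held at least 1 such match, and 4 of the 13 windows of the members did, so the motif is common. In *Il1r2* the letters CACGTG matched at 2 places and ACGTG gave 6 matches counted on both strands. The letters CACGTG were in 7.15% of all windows and in 1 member window. The letters ACGTG were in 19.6% of all windows and in 3 member windows, those of *Il1r2*, *Il1rap* and *Il1r1* (1 of its windows). The AP-1 letters TGANTCA, searched in the same way, were in 7.81% of all windows and in 1 member window, which belongs to *Il1rn*. Windows were found for 7 of the 8 members. A match describes letters only, and binding was not measured.

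The libraries held 10841939 to 17278448 counts. *Tfrc* itself was at 50.8 and 54.1 CPM (TMM-scaled counts relative to the library total) in WT against 56.1 and 48.3 CPM in the samples labelled TfR1 cKO, so every direction below rests on the labels. A count over the whole gene does not show which exons the reads cover and can miss the loss of some exons. *Ctla4*, a Treg gene named after its values were seen, was at 407 and 427 CPM in WT. In the samples labelled TfR1 cKO it was at 241 and 235 CPM (DESeq2 adjusted p = 0.000728, edgeR adjusted p = 0.911). Both TfR1 cKO libraries were below both WT libraries for 18.9% of all genes tested. A gene picked in this way does not test the labels. A principal component with 62.6% of the variance set WT replicate 1 and TfR1 cKO replicate 2 apart from the others. Those libraries also carried most of the macrophage and monocyte RNA. The summed CPM of 16 such markers was 800 and 27.8 in the WT libraries and 32.6 and 2668 in the samples labelled TfR1 cKO, and all 16 were detected in 3 of the libraries. *Vcam1* was the highest of them, at 849 CPM in TfR1 cKO replicate 2. The summed CPM of 10 Treg markers was 5258 and 5254 in WT and 4828 and 3874 in the samples labelled TfR1 cKO, so the defining Treg markers were present in all 4 libraries. Markers of B cells (27.4 to 43.6 CPM summed over 9 genes) and dendritic cells (4.34 to 11.8 CPM over 8) were low throughout, and 5 erythroid genes led by *Hba-a1* ranged from 16.9 CPM in WT replicate 1 to 278 CPM in TfR1 cKO replicate 2. In bulk RNA, fewer cells of a type and less RNA per cell cannot be told apart.

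Levels of different genes were compared per kilobase of exon (CPM divided by exon length in the GENCODE vM1 gene models). The counting used a later annotation than vM1, since some identifiers are not in it, so these lengths may differ from the counted ones and levels per kb are approximate. *Sigirr* was by far the most abundant member, with a mean of 148 CPM per kb in WT and 149 in the samples labelled TfR1 cKO. *Il1r2* followed at 17.8 and 7.39 CPM per kb and *Il18r1* at 5.36 and 2.92. A group of 3 lay close together in WT, namely *Il1rap* (1.08), *Il18rap* (1.06) and *Il1rl1* (1.03 CPM per kb), and neighbours within this group overlapped between libraries. The WT order ended with *Il1r1* at 0.424 and *Il1rn* at 0.263 CPM per kb, and apart from the group of 3 each member was above the next in both WT libraries. In the samples labelled TfR1 cKO the same 3 genes were at 0.996, 0.754 and 0.464 CPM per kb. There the last places were exchanged, with *Il1rn* at 0.235 and *Il1r1* at 0.118 CPM per kb and overlapping values. The decoy *Il1r2* was thus present at a higher level than the signalling receptor *Il1r1* in every library of both genotypes.

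**Figure D1:**
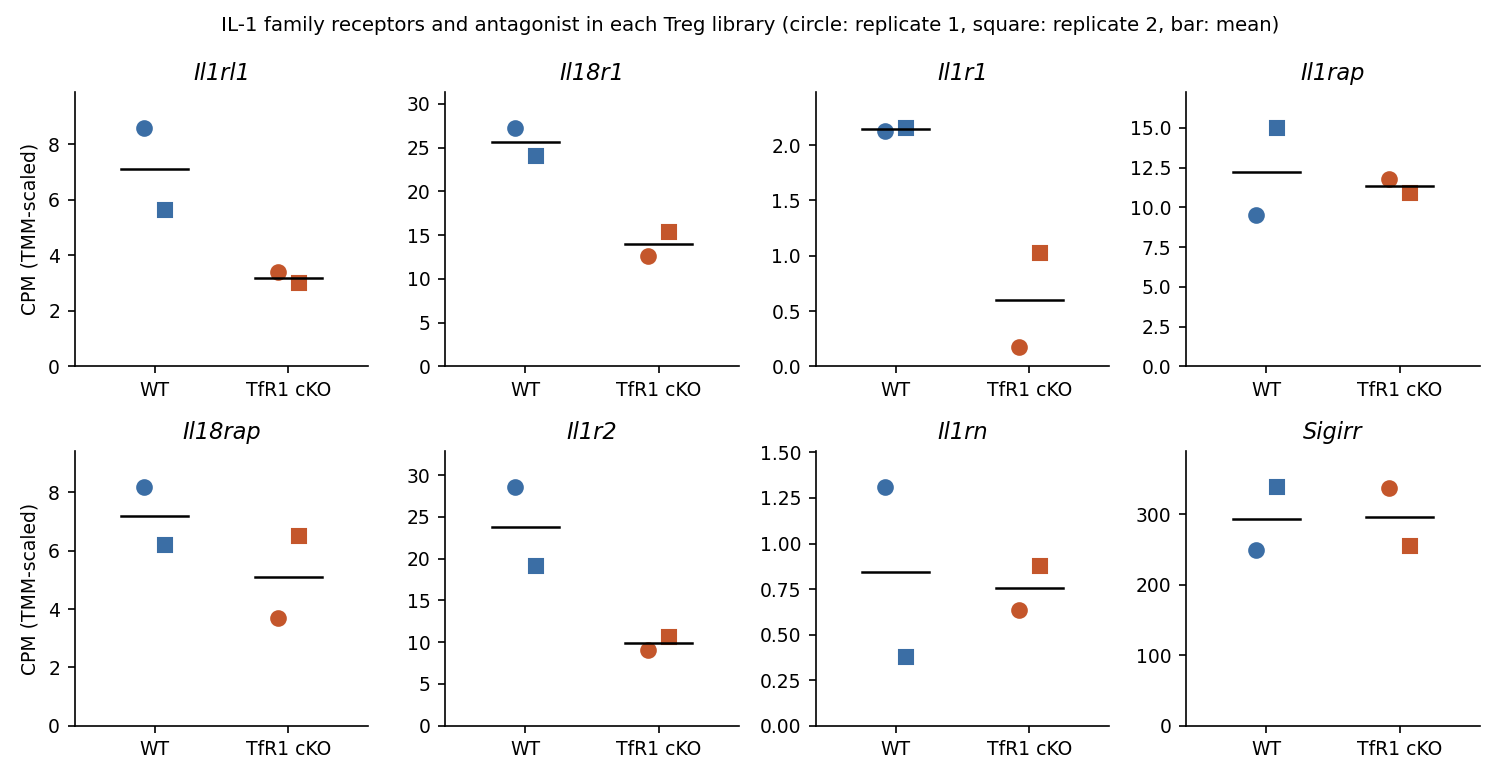
CPM of the 8 members in each library, with points for the 2 WT and the 2 TfR1 cKO libraries and a bar at each group mean. The points of the genotypes are apart for *Il1rl1*, *Il18r1*, *Il1r1* and *Il1r2*, with means of 7.11 and 3.20 CPM for *Il1rl1*, and overlap for the other members.

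*Il1rl1* (ENSMUSG00000026069), the gene of ST2, was counted 105 and 60 times in the WT libraries and 59 and 41 times in the samples labelled TfR1 cKO. Scaled to library size this was 8.60 and 5.62 CPM against 3.40 and 2.99 CPM. Both TfR1 cKO libraries were below both WT libraries, and the WT libraries were farther apart than the others. The mean was 7.11 ± 2.10 CPM in WT and 3.20 ± 0.288 CPM in the samples labelled TfR1 cKO (SD, n = 2), which is 45.0% of WT. The log2 fold change was -1.15 (standard error 0.38, 95% interval -2.13 to -0.17), with an unadjusted p of 0.0291 and an adjusted p of 0.911 (quasi-likelihood test of edgeR, Benjamini-Hochberg over all genes tested). No gene passed an adjusted p of 0.05 in this test, 0 of 12536 (0.0%) in either direction. At the threshold used in the study, an unadjusted p under 0.05 with a log2 fold change of -0.5 or less, 311 of the 12536 genes (2.48%) were called lower and *Il1rl1* was among them. In the direction of 0.5 or more, 200 genes (1.6%) were called. DESeq2's Wald test gave *Il1rl1* a log2 fold change of -1.14 (standard error 0.53), an unadjusted p of 0.0299 and an adjusted p of 0.784, and it called 307 genes (2.45%) lower at the study's threshold. The call of *Il1rl1* at this threshold was lost when WT replicate 1 (unadjusted p = 0.155 in edgeR), TfR1 cKO replicate 1 (0.0758) or TfR1 cKO replicate 2 (0.107) was left out.

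*Il1rl1* is also expressed by group 2 innate lymphoid cells and mast cells, whose markers were therefore examined beside it. *Il1rl1* itself was at 2.99 to 8.60 CPM. The summed CPM of 7 ILC2 markers without *Il1rl1* was 16.04 and 11.9 in WT and 8.59 and 12.0 in the samples labelled TfR1 cKO. Most of this was *Il9r*, at 12.1 and 9.84 CPM in WT and 4.96 and 9.20 CPM in the others, a receptor gene that T cells can express. *Il5* and *Calca* had 0 counts in all 4 libraries, and *Il13* had 1, 0, 0 and 2. The 10 mast cell and basophil markers summed to 3.77 and 3.75 CPM in WT and to 7.90 and 5.69 CPM in the samples labelled TfR1 cKO, with *Kit* the highest and *Cma1* at 0. *Kit*, which is not particular to these cells, was at 2.54 and 2.625 CPM in WT and 5.475 and 1.53 CPM in the samples labelled TfR1 cKO. *Prss34* was at 1.53 CPM in TfR1 cKO replicate 2 and at 0 in the other libraries. *Cpa3*, *Gata2* and *Hdc*, named after their values were seen, were higher in both samples labelled TfR1 cKO. *Cpa3* was at 0.082 and 0.469 CPM in WT against 0.807 and 0.584 CPM. *Gata2* was at 0 and 0 against 0.23 and 0.584 CPM, and *Hdc* at 1.06 and 0.562 against 1.325 and 1.17 CPM. The groups overlapped for the other mast cell and basophil markers. The part of these cells in the *Il1rl1* counts was not tested.

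The IL-18 receptor chains differed in how clearly the groups were apart. *Il18r1* (ENSMUSG00000026070), the ligand-binding chain, had 333 and 256 counts in WT and 218 and 210 in the samples labelled TfR1 cKO. These were 27.3 and 24.0 CPM in WT against 12.6 and 15.3 CPM, and the groups did not overlap. The means were 25.6 ± 2.31 and 13.9 ± 1.96 CPM (SD, n = 2), so the level in the samples labelled TfR1 cKO was 54.4% of WT. The log2 fold change was -0.88 (standard error 0.23, 95% interval -1.47 to -0.28, edgeR unadjusted p = 0.0125, adjusted p = 0.911). DESeq2 gave an unadjusted p of 0.00446 and an adjusted p of 0.369 for *Il18r1*. In edgeR the unadjusted p of *Il18r1* was 0.0707 with WT replicate 1 left out and 0.0780 with TfR1 cKO replicate 1 left out. *Il18rap* (ENSMUSG00000026068), the accessory chain, was at 8.19 and 6.19 CPM in WT and 3.69 and 6.50 CPM in the samples labelled TfR1 cKO. TfR1 cKO replicate 2 lay between the WT libraries, so the groups overlapped. Its log2 fold change was -0.50 (standard error 0.42, 95% interval -1.57 to 0.57, edgeR adjusted p = 0.9504). The interval of *Il18rap* spans the estimate for *Il18r1*, and a difference between the chains was not tested.

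*Il18rap* is abundant in NK cells and activated CD8 T cells, whose markers were therefore examined beside it. The 9 NK cell markers summed to 18.9 and 18.6 CPM in WT and 17.9 and 22.9 CPM in the samples labelled TfR1 cKO. Their highest member *Prf1*, which encodes perforin, was at 11.5, 14.2, 10.9 and 10.1 CPM in the same order. Other NK cell markers, named after their values were seen, went in both directions. *Eomes* was at 1.06 and 1.12 CPM in WT and 2.25 and 2.41 CPM in the samples labelled TfR1 cKO (log2 fold change 1.08, standard error 0.49), and *Gzma* was also higher in both of these, at 1.32 and 1.31 CPM against 1.146 and 0.375 CPM. *Klrk1* was at 5.91 CPM in TfR1 cKO replicate 2 and at 0.750 to 1.80 CPM in the others. *Ncr1* had 10 and 2 counts in WT and 3 and 1 in the samples labelled TfR1 cKO. *Cd8a* and *Cd8b1* together were at 11.1 and 11.8 CPM in WT and 12.6 and 12.4 CPM in the others. The part of these cells in the *Il18rap* counts was not tested.

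Among the IL-1 receptors, the decoy *Il1r2* had the smallest p-value of the 8 genes. *Il1r2* (ENSMUSG00000026073) was counted 349 and 204 times in WT and 158 and 146 times in the samples labelled TfR1 cKO, or 28.6 and 19.1 CPM against 9.10 and 10.7 CPM. The groups were well apart, with the higher TfR1 cKO library at 10.7 CPM and the lower WT library at 19.1 CPM. The means were 23.8 ± 6.68 and 9.88 ± 1.10 CPM (SD, n = 2), so the level in the samples labelled TfR1 cKO was 41.4% of WT. The log2 fold change was -1.27 (standard error 0.30, 95% interval -2.03 to -0.51, edgeR unadjusted p = 0.00739, adjusted p = 0.911). DESeq2 gave *Il1r2* an adjusted p of 0.0998, with 33 of 12536 genes (0.263%) called lower at an adjusted p of 0.05, none of them a member. In edgeR without a count filter the adjusted p of *Il1r2* was 0.0281. *Il1r2* kept an unadjusted p under 0.05 in edgeR with any 1 library left out, the highest being 0.0482 without WT replicate 1. *Il1r2* is also a neutrophil gene, and the neutrophil markers *S100a8*, *S100a9*, *Ly6g*, *Camp* and *Retnlg* had 0 counts in all 4 libraries. The 13 neutrophil markers summed to 3.19 and 2.53 CPM in WT and 0.461 and 9.05 CPM in the samples labelled TfR1 cKO, and the highest sum was in TfR1 cKO replicate 2, in which *Il1r2* was at 10.7 CPM. *Csf3r*, at 5.55 CPM in that library and 1.06 CPM in WT replicate 1, had 0 counts in the other 2. *Mmp9*, named after its values were seen, made up most of both WT sums and was lower together with *Il1r2*, at 1.88 and 2.44 CPM in WT and 0.173 and 0.438 CPM in the samples labelled TfR1 cKO (log2 fold change -2.82, standard error 0.72, edgeR unadjusted p = 0.0106, adjusted p = 0.911). The part of neutrophils in the *Il1r2* counts was not tested.

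*Il1r1* (ENSMUSG00000026072), the signalling receptor for IL-1, rested on few reads. It had 26 and 23 counts in WT and 3 and 14 in the samples labelled TfR1 cKO, or 2.13 and 2.16 CPM against 0.173 and 1.02 CPM. The WT libraries were nearly equal and the TfR1 cKO libraries lay below them but far from each other. Relative to the WT libraries together, TfR1 cKO replicate 1 was at 8.07% (95% exact counting interval 1.61 to 25.02%) and replicate 2 at 47.7% (24.3 to 87.9%), where the intervals cover counting error only. The log2 fold change over all libraries was -1.86 (standard error 0.89, 95% interval -4.12 to 0.40), with an edgeR unadjusted p of 0.0880 and an adjusted p of 0.911. *Il1r1* had the largest estimated change of the 8 genes and did not reach the study's threshold in this fit. It did so in edgeR without a count filter (unadjusted p = 0.0227) and without TfR1 cKO replicate 2 (0.0177). Without TfR1 cKO replicate 1 its log2 fold change was -1.06, and without TfR1 cKO replicate 2 it was -3.56, so the size of the estimate depended on these libraries.

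The antagonist gene *Il1rn* (ENSMUSG00000026981) was at 1.31 and 0.375 CPM in WT and 0.634 and 0.876 CPM in the samples labelled TfR1 cKO. With 16, 4, 11 and 12 counts, the WT libraries spanned both others. The log2 fold change was -0.18 (standard error 0.83, 95% interval -2.30 to 1.94, edgeR adjusted p = 0.991), an interval that spans a change of the size seen for *Il1r2* in either direction. Myeloid cells are a known source of the IL1RN protein. In each genotype the library with more macrophage RNA also had more *Il1rn*, at 1.31 against 0.375 CPM in WT. In the samples labelled TfR1 cKO the values were 0.876 against 0.634 CPM. Over all libraries, WT replicate 1 had the most *Il1rn* and TfR1 cKO replicate 2 the most macrophage RNA. The part of myeloid cells in the *Il1rn* counts was not tested.

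The shared accessory chain and the negative regulator showed no separation of the groups. *Il1rap* (ENSMUSG00000022514) was at 9.495 and 15.0 CPM in WT and 11.8 and 10.9 CPM in the samples labelled TfR1 cKO. Both TfR1 cKO values lay between the WT values, and the log2 fold change was -0.11 (standard error 0.33, 95% interval -0.94 to 0.72, edgeR adjusted p = 0.989). *Il1rap* lies on chromosome 16, as does the targeted gene *Tfrc*, 5.88 Mb away. *Sigirr* (ENSMUSG00000025494), the most abundant member, was at 249 and 339 CPM in WT and 338 and 256 CPM in the samples labelled TfR1 cKO. The ranges of the genotypes covered each other almost fully. The log2 fold change of *Sigirr* was 0.01 (standard error 0.23, 95% interval -0.56 to 0.59, edgeR adjusted p = 0.998), and with 3040 to 5860 counts per library the spread between libraries set this interval rather than depth. Neither interval reaches a decrease as large as the estimate for *Il1r2*.

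**Figure D2:**
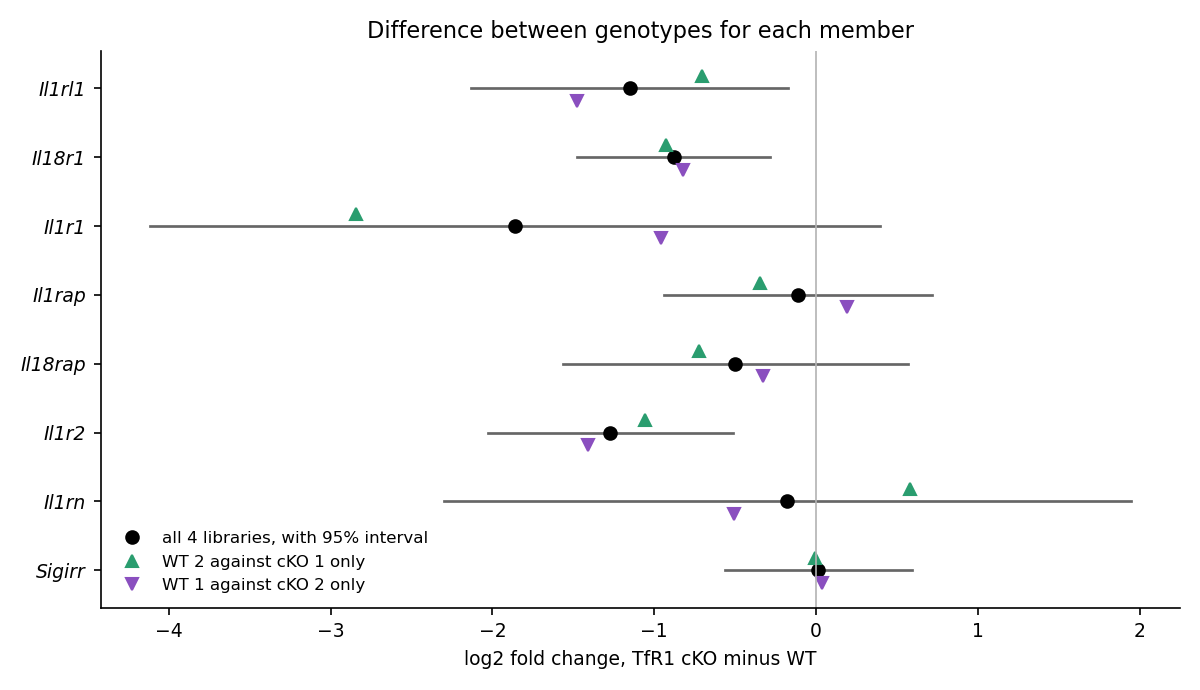
Log2 fold change of each member, TfR1 cKO against WT, from edgeR's quasi-likelihood fit, with bars for 95% intervals and a line at 0. The intervals of *Il1r2*, *Il18r1* and *Il1rl1* lie below 0 and those of the other 5 members include 0.

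Counted together, 7 of the 8 genes had a negative log2 fold change, as did 48.9% of all genes tested. The median over the 8 genes was -0.69, against 0.01 over all genes tested, whose quartiles were -0.20 and 0.23. For 4 genes (50.0%), *Il1rl1*, *Il18r1*, *Il1r1* and *Il1r2*, both TfR1 cKO libraries were below both WT libraries, which held for 18.9% of all genes tested. For 0 of the 8 both were above, against 16.0% of all genes. At the study's threshold 3 genes were lower (37.5%), namely *Il1rl1*, *Il18r1* and *Il1r2*, beside the 2.48% given for all genes, and 0 were higher. Without WT replicate 1, or without TfR1 cKO replicate 1, only *Il1r2* of the members was lower at that threshold. Without TfR1 cKO replicate 2 the members that passed were *Il18r1*, *Il1r1* and *Il1r2*. The median over the members ranged from -0.998 to -0.47 when single libraries were left out. The genes were chosen with earlier results of these libraries known, so these shares describe the members and test nothing.

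Some Treg transcripts also separated the groups in the same direction. Of the listed Treg markers, *Foxp3*, *Cd3e*, *Il2ra*, *Ctla4*, *Ikzf4*, *Lrrc32* and *Cd4* had both TfR1 cKO libraries below both WT libraries. That held for 18.9% of all genes tested. The groups overlapped for *Ikzf2*, *Tnfrsf18* and *Tnfrsf4*, with log2 fold changes of -0.26, 0.05 and 0.14. *Foxp3*, which encodes the transcription factor that defines Treg cells, was at 194 and 130 CPM in WT and 122 and 114 CPM in the others (log2 fold change -0.46, standard error 0.22, edgeR adjusted p = 0.911), and its log2 fold change was -0.13 without WT replicate 1. The T cell receptor component *Cd3e* had a log2 fold change of -0.43, from 1088 and 904 CPM to 714 and 765 CPM. The members were therefore also expressed per 1000 *Foxp3* counts of the same library, a scaling chosen after the data were seen. Per 1000 *Foxp3* counts *Il1rl1* was at 44.3 and 43.2 in WT and at 28.0 and 26.2 in the samples labelled TfR1 cKO. On this scale the WT libraries, which differed in CPM, were nearly equal. *Il1r2* was at 147 in each WT library and at 74.8 and 93.2 in the others. *Il18r1* was at 140 and 184 against 103 and 134, so that the gap between the nearest libraries became small. *Il1r1* was at 10.97 and 16.5 against 1.42 and 8.94. The same 4 genes kept both TfR1 cKO libraries below both WT libraries on this scale and per 1000 *Cd3e* counts. Differences shrank, with a log2 ratio per *Foxp3* count of -0.69 for *Il1rl1*, -0.45 for *Il18r1* and -0.81 for *Il1r2*.

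**Figure D3:**
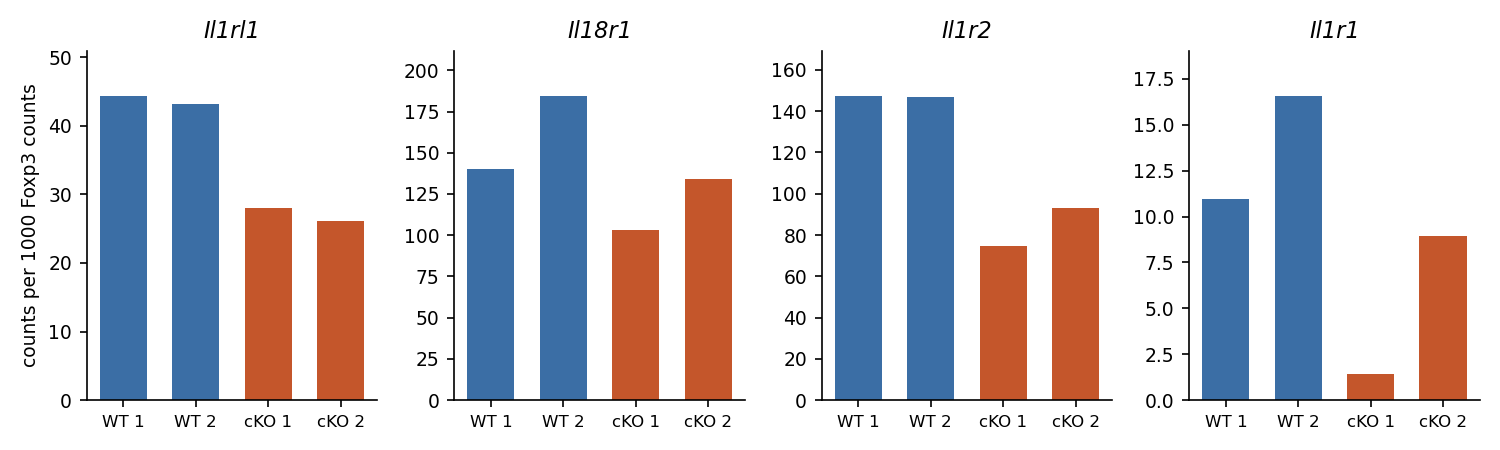
Counts of *Il1rl1*, *Il18r1*, *Il1r2* and *Il1r1* per 1000 *Foxp3* counts of the same library, 1 bar per library. *Il1rl1* lies at 44.3 and 43.2 in WT and at 28.0 and 26.2 in the TfR1 cKO libraries.

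Together with *Il1rl2*, the gene of the IL-36 receptor, 5 members form a cluster over 467 kb of chromosome 1 (GRCm38.p6, 40084692 to 40551707), all on the plus strand. From the start of the segment the order is *Il1r2* (40084692 to 40125230), *Il1r1* (40222480 to 40316201), *Il1rl2*, *Il1rl1* (40404864 to 40465418), *Il18r1* (40465552 to 40500854) and *Il18rap* (40515362 to 40551707). The log2 fold changes in that order were -1.27, -1.86, 0.39, -1.15, -0.88 and -0.50. *Il1rl2*, whose estimate was -0.04 without TfR1 cKO replicate 2, was at 3.11 and 2.81 CPM in WT and 2.88 and 4.89 CPM in the samples labelled TfR1 cKO, with overlapping groups and a standard error of 0.44. Outside the cluster the nearest tested gene on the side of *Il1r2* was *Map4k4*, a kinase gene, at 37.3 and 46.4 CPM in WT and 50.2 and 47.8 CPM in the others (log2 fold change 0.23, standard error 0.18). On the side of *Il18rap* it was *Mfsd9*, a transporter gene, with values under 2 CPM in every library and a log2 fold change of 0.92 (standard error 0.75). Negative log2 fold changes were thus found at 5 of the 6 genes in the segment, as they were for 48.9% of all genes tested. Of these 5, the intervals of *Il1r1* and *Il18rap* included 0, and the groups of *Il18rap* overlapped. Both tested neighbours had positive estimates, and a difference between the segment and its neighbours was not tested. *Il1rl1* ends within 500 bases of the start of *Il18r1* on the same strand, so reads that run past the end of *Il1rl1* could be counted on *Il18r1*. *Il1r2* is overlapped on the other strand by the lincRNA *Gm16894*, and the library kit does not mark strand, so reads of that RNA cannot be told from those of *Il1r2* where they overlap. The other members lie on chromosome 2 (*Il1rn*, 24336860 to 24351491), chromosome 7 (*Sigirr*, 141091175 to 141100597) and chromosome 16 (*Il1rap*, 26581509 to 26730128).

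**Figure D4:**
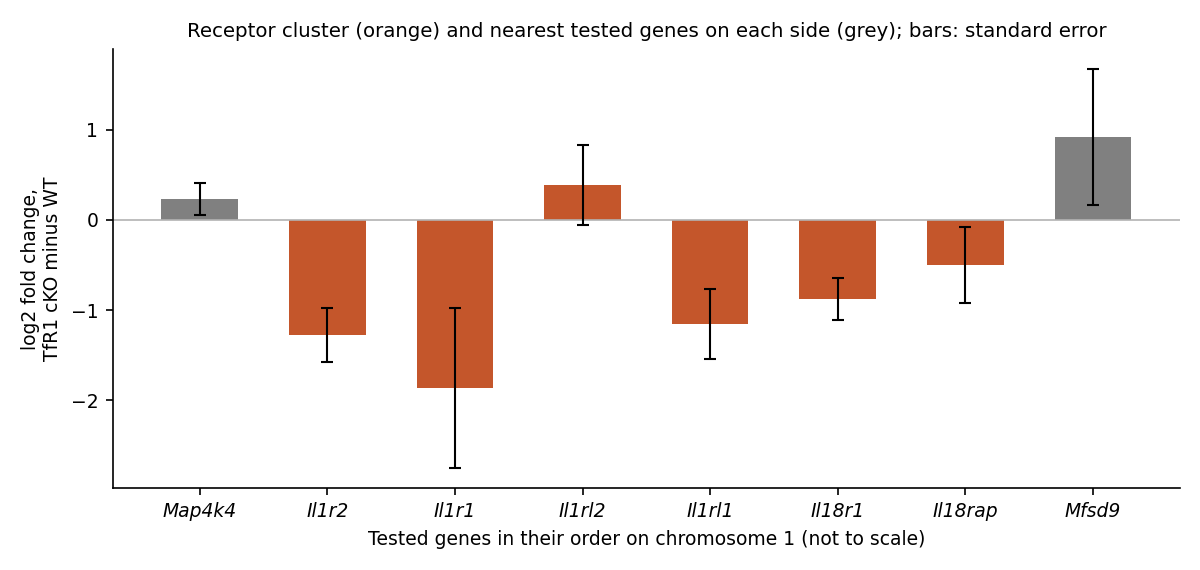
Log2 fold change with standard error of the tested genes of the chromosome 1 receptor cluster and its nearest tested neighbours, in the order of the chromosome and without scale for distance. The values are negative at *Il1r2*, *Il1r1*, *Il1rl1*, *Il18r1* and *Il18rap* and positive at *Il1rl2* and at the neighbours *Map4k4* and *Mfsd9*.

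The genes with profiles most like that of *Il1rl1* were found by the Euclidean distance between log2 CPM values over the 4 libraries, each gene centred on its own mean. The nearest was *Il12rb1* (distance 0.108), a chain of the IL-12 and IL-23 receptors, at 45.3 and 32.5 CPM in WT and 20.1 and 17.4 CPM in the samples labelled TfR1 cKO. It was followed by *Ccdc157* (0.140), a gene without a symbol, ENSMUSG00000095426 (0.156), the ion channel gene *Trpm6* (0.185) and *Prdm1* (0.190), which encodes the transcription factor BLIMP1. Among the members *Il1r2* was the nearest to *Il1rl1*, at place 28 of all genes, and *Il18r1* stood at place 127. For *Il18r1* the nearest were *C030019I05Rik* (0.0733), the T cell receptor segment *Trbv26* (0.0786), ENSMUSG00000097352 (0.0963), *Akna* (0.101) and *4930503L19Rik* (0.105). *Akna*, an AT-hook protein gene, was at 1445 and 1253 CPM in WT and 611 and 777 CPM in the others. With 4 points per profile, a small distance says no more than that values ran alongside each other in these libraries.

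The wider pathway was described through a list of 58 ligands, other receptors, processing enzymes, adaptors, kinases and NF-kB and MAP kinase genes that excludes the members, of which 47 were tested. These genes too were chosen with earlier results of these libraries known, so the shares below describe the list and test nothing. Its median log2 fold change was 0.04, against 0.01 for all genes tested, and 17 of the 47 were negative. Both TfR1 cKO libraries were below both WT libraries for 13 genes (27.7%, against 18.9% of all genes tested) and above them for 6 (against 16.0% of all genes tested). At the study's threshold 3 genes were lower (6.38%, against 2.48% of all genes tested), *Casp4*, *Tnfaip3* and *Zc3h12a*. At that threshold 0 were higher (against 1.6%), and 0 passed an adjusted p of 0.05 in edgeR. Without WT replicate 2 the genes that passed were *Nfkb2*, *Nfkbia* and *Zc3h12a*, without TfR1 cKO replicate 1 *Tnfaip3* alone, and without TfR1 cKO replicate 2 *Casp1* and *Zc3h12a*.

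Ligand transcripts were few or not detected at this depth. Of 8 ligand genes only *Il18* was tested, and *Il33*, *Il36a*, *Il36b*, *Il36g* and *Il1f10* had 0 counts in all 4 libraries. *Il1b* was at 0.982 and 0 CPM in WT and 0 and 0.584 CPM in the samples labelled TfR1 cKO, so its few reads were in the libraries with more macrophage RNA. *Il18* was at 3.85 and 0.750 CPM in WT and 0.230 and 14.2 CPM in the others, and *Il18bp*, which encodes the soluble inhibitor of IL-18, at 6.47, 3.37, 4.84 and 19.0 CPM in the same order. For both genes the high value was in TfR1 cKO replicate 2, the library with the summed macrophage markers at 2668 CPM. Their log2 fold changes were 1.63 (standard error 1.65) and 1.27 (standard error 0.73). Without that library they became -3.28 and -0.03, so neither direction holds without it.

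Inflammasome genes and inflammatory caspases held the most negative estimates of the list, *Casp4* and *Casp1*. *Casp4*, the inflammatory caspase that senses intracellular lipopolysaccharide, was at 7.20 and 11.1 CPM in WT and 4.21 and 4.67 CPM in the samples labelled TfR1 cKO (log2 fold change -1.04, standard error 0.36). *Casp1*, which cleaves the precursors of IL-1beta and IL-18, was at 21.9 and 22.3 CPM against 8.59 and 16.4 CPM (log2 fold change -0.82, standard error 0.36). *Aim2*, which encodes a DNA sensor and was chosen after its values were seen, was at 23.9 and 23.8 CPM against 16.4 and 17.0 CPM. These 3 were the genes with groups apart among 6 tested ligand-processing genes (50.0% below, against 18.9% of all genes tested). The median of the 6 was -0.30.

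For the adaptors and kinases downstream, genes lay on both sides of 0. Over 14 adaptors and kinases the median log2 fold change was 0.09. Of these, 3 genes were below in both TfR1 cKO libraries (21.4%, against 18.9% of all genes tested), *Irak2*, *Irak4* and *Map3k7*. Another 4 of the 14 were above, *Tirap*, *Tab1*, *Tab3* and *Map3k3*, beside 16.0% of all genes tested. These names are given after their values were seen. *Myd88*, the adaptor of all signalling receptors of the family, was at 90.0 and 104 CPM in WT and 115 and 93.2 CPM in the others, with overlapping groups. *Tab3*, a partner of the kinase TAK1, had the largest positive estimate after *Il18* and *Il18bp*, at 3.36 and 2.62 CPM against 5.24 and 4.31 CPM (log2 fold change 0.67, standard error 0.38). Of 16 NF-kB genes 7 (43.8%, against 18.9% of all genes tested) were below in both TfR1 cKO libraries, with a median of -0.12. *Tnfaip3*, which encodes the NF-kB inhibitor A20, was at 637 and 816 CPM in WT and 544 and 362 CPM in the others (log2 fold change -0.68, standard error 0.25). *Zc3h12a*, which encodes the ribonuclease Regnase-1, was at 81.0 and 70.6 CPM against 45.6 and 51.0 CPM (log2 fold change -0.65, standard error 0.16). Both encode restraints on inflammatory signalling that NF-kB induces. Over 8 genes of the p38 and JNK branch the median was 0.16, with 0 below (against 18.9% of all genes tested) and 2 above (against 16.0%).

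Genes known to accompany ST2 in activated and tissue Treg cells were given by a second list of 20, all tested. Like the members, they were chosen with earlier results of these libraries known, so the shares below describe the list and test nothing. Its median log2 fold change was -0.47 and 18 of the 20 were negative. Both TfR1 cKO libraries were below both WT libraries for 13 (65%, against 18.9% of all genes tested) and above them for 0 (against 16.0%). At the study's threshold 6 were lower (30.0%, against 2.48%), namely *Irf4*, *Ccr8*, *Ccr2*, *Tigit*, *Bhlhe40* and *Cd44*. Of these 6, *Ccr8*, *Tigit* and *Bhlhe40* passed with any 1 library left out, *Irf4* and *Ccr2* failed when either WT replicate 1 or TfR1 cKO replicate 1 was left out, and *Cd44* passed only without TfR1 cKO replicate 2 among the fits with 3 libraries. *Ccr2*, a chemokine receptor gene, had the lowest estimate, at 41.8 and 21.6 CPM in WT and 5.01 and 13.7 CPM in the samples labelled TfR1 cKO (log2 fold change -1.76, standard error 0.58). *Bhlhe40*, a transcription factor gene, was at 157 and 188 CPM against 78.0 and 45.2 CPM (log2 fold change -1.49, standard error 0.29). The cytotoxic effector gene *Gzmb* was at 5.32 and 3.84 CPM against 1.498 and 2.63 CPM (log2 fold change -1.15, standard error 0.47). *Ccr8*, a chemokine receptor gene typical of tissue Treg cells, was at 78.2 and 68.3 CPM against 41.0 and 40.2 CPM. None passed an adjusted p of 0.05 in edgeR, while DESeq2 called *Bhlhe40* (adjusted p = 0.00155) and *Ccr8* (adjusted p = 0.0325) lower.

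The ST2 list also held genes without a separation of the groups. *Gata3*, which encodes a transcription factor that drives *Il1rl1* expression in type 2 lymphocytes, was at 544 and 737 CPM in WT and 717 and 500 CPM in the samples labelled TfR1 cKO, a log2 fold change of -0.07 (standard error 0.25). Its groups overlapped in part, and whether *Gata3* had a part in the *Il1rl1* difference was not tested. *Areg*, which encodes the repair factor amphiregulin, was under 2 CPM in every library. The positive estimates of *Pparg* (1.78, standard error 1.34) and *Dgat2* (0.07, standard error 0.58) had standard errors close to or above their size. *Pparg* was at 8.69 CPM in TfR1 cKO replicate 2 and under 2 CPM in the other 3 libraries, and without that library its log2 fold change was -1.499.

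**Figure D5:**
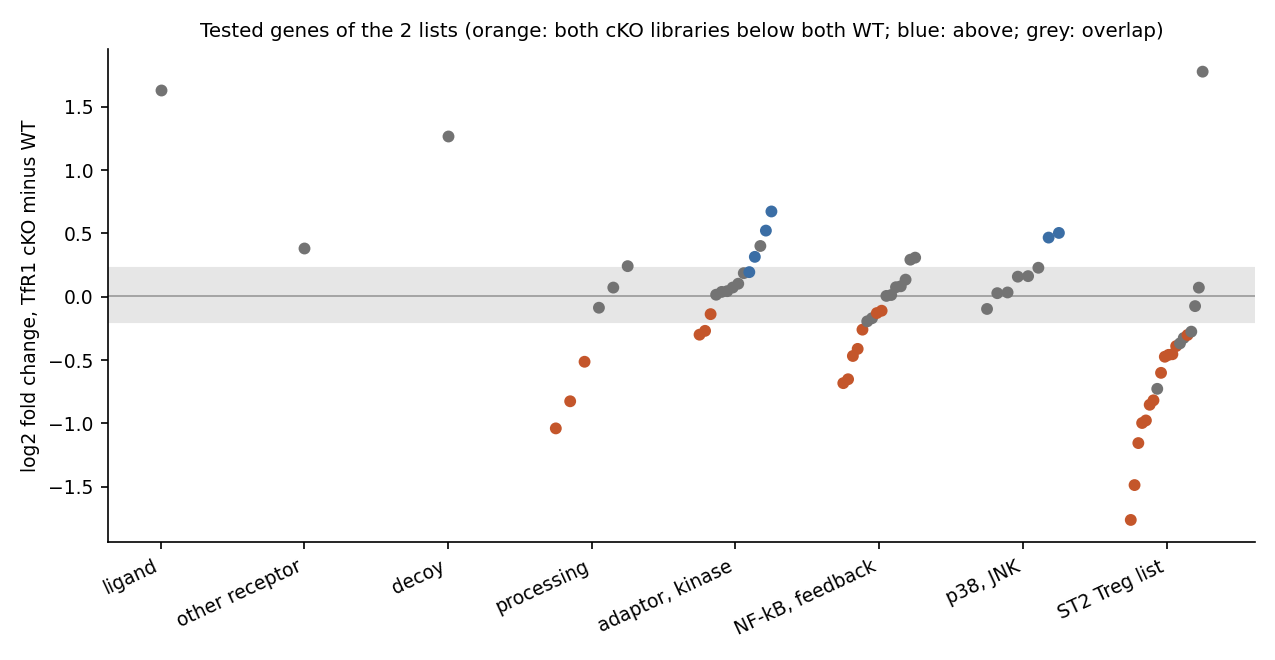
Log2 fold changes of the IL-1 family pathway list, split by role, and of the ST2 Treg list, 1 point per tested gene, with a line at the median and a band for the quartiles of all genes tested. The median is 0.04 for the pathway list and -0.47 for the ST2 Treg list.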

How the data were processed

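RNA of sorted CD25+YFP+ Treg cells was measured in 4 libraries, and genotype and replicate number were taken from the sample labels. The values deposited by the authors are raw counts, 1 whole number for each Ensembl gene and library, with no pooling of replicates. The submitters' processing notes name Trim Galore 0.6.7, STAR 2.7.9a, featureCounts and mm10, whereas the methods of the study name mm9, so the build of the counts is not certain and no coordinate was read from them. The strand setting of the counting is not given in the sources used here, and the NEBNext Single Cell/Low Input kit does not mark strand. All 47729 rows name a gene, 22368 had a count, and 0.907% of counts fell on rows without a symbol.

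After filterByExpr, which kept 12536 genes, TMM factors and the two-sided quasi-likelihood test were computed in edgeR 4.0.16 (R 4.3.3), with genotype alone in the model and Benjamini-Hochberg adjustment over all of them. The standard error of a log2 fold change is its size divided by the square root of the F statistic. CPM values use TMM-scaled totals and log2 CPM a prior count of 2. An exact permutation test of 2 against 2 libraries cannot give a p below 0.333 and was not used. The common biological coefficient of variation was 0.323, so the spread between libraries limits most values more than counting error does. Replicates were far from repeats of each other (chi-square over its degrees of freedom 29.3 in WT and 45.7 in TfR1 cKO). The fits were tested on simulated counts with known changes.

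Exon lengths came from GENCODE vM1, which is older than the annotation of the counts, and gene positions and promoter sequences from RefSeq on GRCm38.p6. Alternatives were other scaling factors and count filters, DESeq2 1.42.0, the study's threshold (an unadjusted p under 0.05 and a log2 fold change of 0.5 or more in size), a term for the replicate number, single libraries against each other, and each library left out in turn. Members and lists were chosen with earlier results of these data known. The genes to be named were the members, *Tfrc*, *Foxp3*, the 3 largest changes in each direction in either list, the 5 nearest profiles to *Il1rl1* and *Il18r1*, any listed gene with an adjusted p under 0.05, and the highest marker of each other cell type. Other genes named in the lists, the neighbours on chromosome 1, *Cd3e*, *Areg*, *Myd88* and some markers were chosen after their values were seen. Every sample column was used, and reads by exon were not analysed here.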

Additional observations from a re-analysis of the deposited data

How the results depend on the processing

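Every alternative kept *Il1rl1*, *Il18r1*, *Il18rap* and *Il1r2* lower in the samples labelled TfR1 cKO (15 alternatives each), and *Il1r1* (14, since it did not reach 10 counts in every library). With each library left out in turn, log2 fold changes ranged from -1.42 to -0.80 for *Il1rl1*, -1.03 to -0.74 for *Il18r1*, -3.56 to -1.06 for *Il1r1*, -1.53 to -0.94 for *Il1r2*, -0.96 to -0.15 for *Il18rap*, -0.40 to 0.25 for *Il1rap*, -0.79 to 0.998 for *Il1rn* and -0.20 to 0.25 for *Sigirr*, where the genotype with 1 library is assumed to vary like the other. The direction turned for *Il1rap* without WT replicate 2 (0.25), for *Il1rn* without WT replicate 1 (0.998) or TfR1 cKO replicate 1 (0.04) and for *Sigirr* without the same (-0.18 and -0.20). Between the libraries low in macrophage RNA (WT replicate 2 and TfR1 cKO replicate 1) the values were -0.70 for *Il1rl1*, -2.84 for *Il1r1*, 0.58 for *Il1rn* and -0.0037 for *Sigirr*, and between those high in it -1.48 for *Il1rl1* and 0.19 for *Il1rap*.

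Scalings per *Foxp3* and per *Cd3e* count, chosen after the data were seen, gave -0.69 and -0.70 for *Il1rl1*, -0.45 and -0.46 for *Il18r1*, -0.81 and -0.83 for *Il1r2*, 0.23 and 0.28 for *Il1rap*, 0.42 and 0.33 for *Il1rn*, and 0.37 and 0.42 for *Sigirr*, with *Il18rap* at -0.0409 per *Foxp3* count. Both denominators had negative log2 fold changes themselves.

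Without a count filter edgeR called 95 genes lower and 167 higher at an adjusted p under 0.05, among them *Il1r2* (-1.26, adjusted p = 0.0281), and DESeq2 called 33 and 6. With no filter 650 genes were higher at the study's threshold. With each library left out 140 to 372 genes were lower and 151 to 268 higher at that threshold, the fewest lower (140) without WT replicate 1, and 0 passed an adjusted p under 0.05. Deviations of same-numbered libraries ran opposite to each other (correlation -0.609). Macrophage RNA was high in WT replicate 1 and TfR1 cKO replicate 2, which have different numbers, so this value cannot show whether the numbers pair the samples. A replicate block left 141 genes lower and 70 higher at the study's threshold, with *Il1rl1* at -1.12 (edgeR unadjusted p = 0.0724), *Il18r1* at -0.88 (0.0526) and *Il1r2* at -1.25 (0.0258). A crossed block, chosen after the data were seen, gave 519 and 596 at that threshold and 265 and 174 at an adjusted p under 0.05, among them *Il18r1* (-0.88) and *Il1r2* (-1.25), and *Il1r1* (-2.07, edgeR unadjusted p = 0.0244) reached the study's threshold.

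Other named genes turned direction when a library was left out, with ranges of -3.28 to 3.27 for *Il18*, -0.0287 to 1.95 for *Il18bp*, -1.499 to 2.80 for *Pparg* and -0.043 to 0.72 for *Il1rl2*, the lowest each time without TfR1 cKO replicate 2. *Dgat2* ranged from -0.51 (without WT replicate 2) to 1.10 and *Gata3* from -0.36 to 0.16. *Tfrc* stood near 0 throughout and turned to 0.0059 with DESeq2 size factors, 0.0296 with total library size, 0.0045 with no count filter, 0.0129 with at least 10 counts, and 0.0063 in DESeq2, and it ranged from -0.12 to 0.094 with single libraries left out. Where a value changed, the cause was not tested.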
